A study of Mus musculus with 6 samples.

Results

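The genes described here are 10 members of the dual-specificity phosphatase (Dusp) family that act on, or are linked to, MAP kinases: Dusp1, Dusp2, Dusp4, Dusp5, Dusp6, Dusp7, Dusp8, Dusp10, Dusp14 and Dusp16. They were taken by gene symbol from a table of 21240 genes counted by stranded total RNA-seq in NMuMG, a line of mouse mammary gland epithelial cells. Cells grown in medium with 10% serum and 10 µg/ml insulin were kept without serum, and by the study's methods also without insulin, for 6 h before treatment. The vehicle group (veh) then received the carrier of the ligand for 2 h, which is acidified bovine serum albumin in the protocol and is written as Tris-HCl with albumin in the sample labels. The TGFb2h and TGFb12h groups received 5 ng/ml TGFβ1 for 2 h and 12 h. Each group has 2 libraries, labelled as biological replicates without saying what was separate between them, so p-values measure the spread between these libraries. No vehicle was taken at 12 h. The effect of 12 h of TGFβ and that of a longer time without serum and insulin therefore cannot be told apart, and both comparisons with vehicle share the same 2 vehicle libraries.

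MAP kinases are switched on by phosphorylation of a threonine and a tyrosine, and dual-specificity phosphatases remove both phosphates. Many of these phosphatases are themselves transcribed in response to MAP kinase activity, which makes them negative feedback regulators. The nuclear inducible enzymes are encoded by Dusp1, Dusp2, Dusp4 and Dusp5. Dusp6 and Dusp7 encode cytoplasmic enzymes that are selective for ERK, and Dusp8, Dusp10 and Dusp16 encode enzymes that prefer JNK and p38. Dusp14 encodes a small atypical member that lacks the MAP kinase-binding domain. TGFβ signals through SMAD proteins and also through MAP kinases, and in epithelial cells it can drive the epithelial-mesenchymal transition.

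Depth was 14705886 to 23786993 counts per library. Levels are given as CPM, reads counted relative to the library size after scaling by TMM factors (TMM CPM), and 1 CPM is worth 15.7 to 23.0 counts. The median gene differed between replicates by 0.154 on the log2 scale in vehicle, 0.223 at 2 h and 0.136 at 12 h. The TGFβ target Smad7, which encodes an inhibitory SMAD, rose with a log2FC of 2.07 at 2 h and 2.65 at 12 h (edgeR). Of 6 mammary epithelial markers, 4 were tested. Their summed level was 4958 to 5777 CPM in vehicle, 6437 to 6472 at 2 h and 10310 to 10360 at 12 h. Krt8 and Krt18 rose at 12 h (log2FC 1.63 and 1.53, adjusted p = 0.000114 and 0.000275), whereas Krt19 fell by 1.95 on the log2 scale (adjusted p = 0.000103). E-cadherin (Cdh1) stood at 337 CPM or more in every library, whereas Epcam stayed at or below 0.697 CPM and Cldn7 was at 0 in 5 of 6 libraries. Summed immune markers were 155 to 161 CPM in vehicle, 169 to 179 at 2 h and 106 to 117 at 12 h, almost all from Cd14, with the pan-leukocyte gene Ptprc at or below 0.255 CPM. Endothelial markers summed to at most 0.191 CPM in vehicle, 0.303 at 2 h and 1.95 at 12 h, and Adipoq to at most 0.0504 in any library. Fibroblast markers summed to at most 3.35 CPM in vehicle, 3.74 at 2 h and 3.83 at 12 h. Among them Pdgfrb had 0 counts in both vehicle libraries and 22 and 26 at 12 h. Dcn had 10 and 1 counts in vehicle and 1 and 0 at 12 h, and neither gene reached the minimum level for testing. The part of these marker shifts in the results was not tested, and in bulk RNA fewer cells of a type and less RNA per cell cannot be told apart.

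The 10 genes were chosen with earlier results of these data known, so their counts beside the shares of all genes are a description. At 2 h of TGFβ, 6 of the 10 phosphatase genes were higher than in vehicle at an adjusted p under 0.05, against 9.91% of the 11080 genes tested (edgeR, Benjamini-Hochberg). All 6 also passed the study's threshold for robust regulation, an absolute log2FC above 1 besides, which 4.23% of genes passed in that direction. None was called lower at 2 h, where 5.25% of genes were. At an unadjusted p under 0.05, 1 member was lower, with 1 called lower by DESeq2 and 0 by limma-voom. At 12 h, 8 of 10 were higher, all 8 past both thresholds, against 21.8% of genes called higher and 8.03% past both. With the replicate block 9 were higher. None was lower at 12 h by edgeR, at an unadjusted p under 0.05, by DESeq2 or by limma-voom, against 21.5% of all genes called lower. The median log2FC of the members was 1.27 at 2 h and 1.68 at 12 h, beside −0.01 and 0.02 for all genes tested. The size of the Dusp2 change does not enter it, because Dusp2 lies above the median even at the lower bound given below. Dusp2, Dusp5 and Dusp8 reached the minimum level for testing, 2 CPM in 2 libraries, through treated cells, with Dusp8 at that level in 1 vehicle library and the others in none, so their tests depend on the groups where they are high. Of the other 7 members, 3 were higher at 2 h and 5 at 12 h. The middle log2FC of these 7 was 0.41 at 2 h, that of Dusp1, and 1.41 at 12 h, that of Dusp16.

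**Figure D1:**
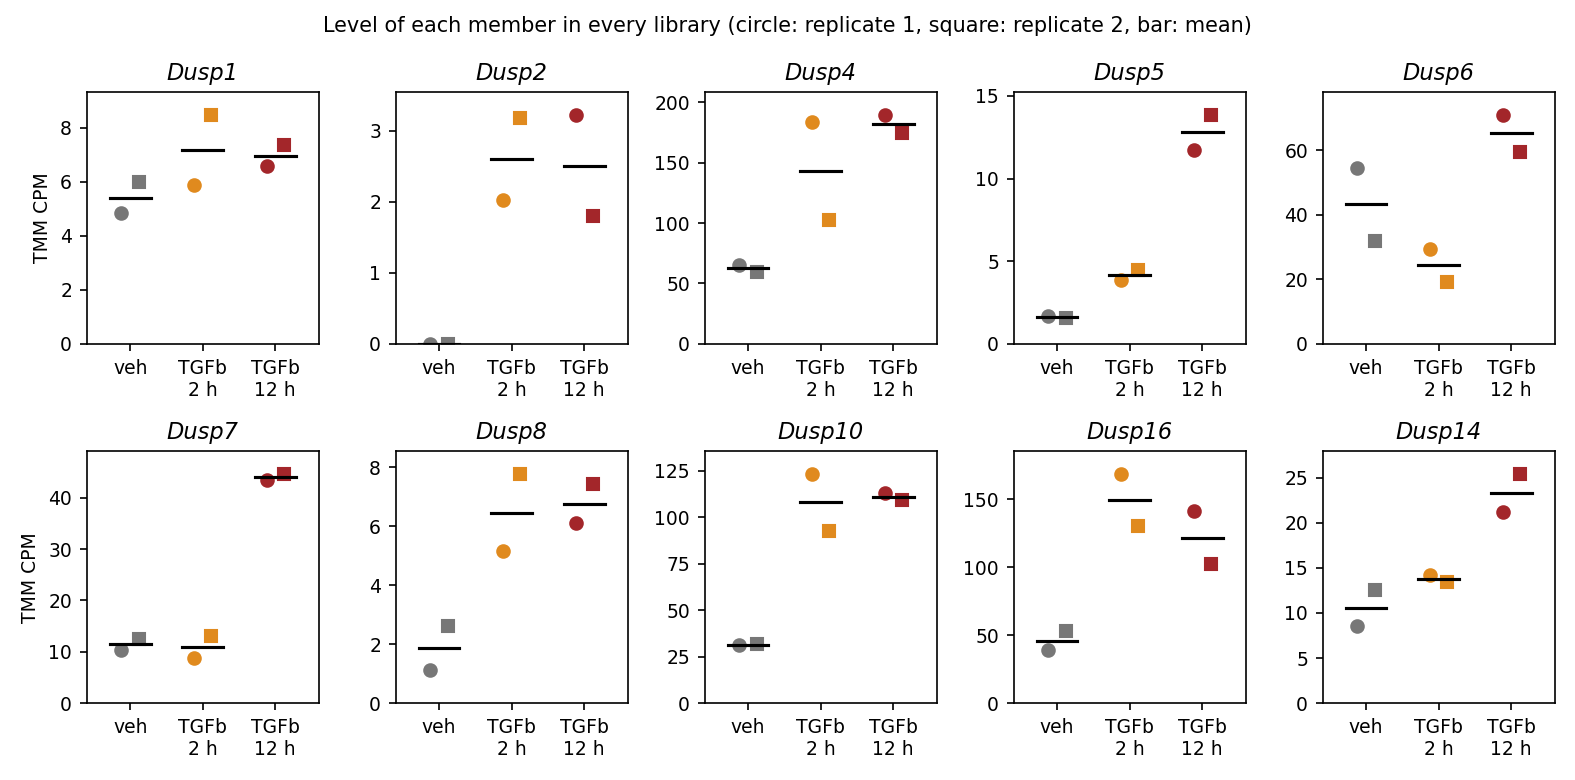
Level of each of the 10 phosphatase genes in TMM CPM (vertical axes, from 0, each panel with its own scale) in the 6 libraries. Circles are replicate 1, squares replicate 2 and bars the mean of the 2 libraries; Dusp10 sits at 31.1 and 31.6 CPM in vehicle and at 92.8 CPM or more in every treated library, whereas Dusp7 is above its vehicle range in both 12 h libraries.

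The 3 genes whose enzymes prefer JNK and p38 rose together at 2 h and stayed high. Dusp10 stood at 31.1 and 31.6 CPM in vehicle, 123 and 92.8 CPM at 2 h, and 113 and 109 CPM at 12 h. Every treated library was far above both vehicle libraries. Its change was 3.44-fold at 2 h (log2FC 1.78 ± 0.151 SE, adjusted p = 0.000940) and 3.54-fold at 12 h (1.82 ± 0.151, adjusted p = 0.000222). Dusp16 stood at 39.1 and 52.9 CPM in vehicle, 169 and 131 CPM at 2 h, and 142 and 102 CPM at 12 h. Here too the treated and vehicle libraries did not overlap, while the ranges of both treated groups did. The fold was 3.25 at 2 h (log2FC 1.70 ± 0.228 SE, adjusted p = 0.00470) and 2.65 at 12 h (1.41 ± 0.227, adjusted p = 0.00310). Dusp8, the least abundant of the 3, stood at 1.12 and 2.61 CPM in vehicle (19 and 41 counts), 5.16 and 7.76 CPM at 2 h, and 6.09 and 7.44 CPM at 12 h. The lowest treated library was above the highest vehicle library, but the SD of the vehicle libraries was 56.6% of their mean, more than for any other member with counts in vehicle. Its log2FC was 1.80 ± 0.415 SE at 2 h (adjusted p = 0.0328) and 1.86 ± 0.414 at 12 h (adjusted p = 0.0112).

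None of these 3 genes passed the test between 12 h and 2 h. The log2FC of 12 h against 2 h was 0.04 ± 0.144 SE for Dusp10 (adjusted p = 0.851), −0.30 ± 0.220 for Dusp16 (adjusted p = 0.338) and 0.07 ± 0.372 for Dusp8 (adjusted p = 0.907). The calls of Dusp10 and Dusp16 at both times held in every fit with 1 library left out. The call of Dusp8 at 2 h was lost without vehicle replicate 1 (log2FC 1.30, adjusted p = 0.124), without TGFb2h replicate 2 (1.48, adjusted p = 0.0765), without TGFb12h replicate 1 or 2 (1.79 each, adjusted p = 0.0864 and 0.0870) and in a fit of the vehicle and 2 h libraries alone (1.79, adjusted p = 0.0885, in a range from 0.000897 over 8 alternative fits). At 12 h it was lost without TGFb12h replicate 2 (1.70, adjusted p = 0.0738).

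The nuclear inducible genes rose except for Dusp1. Dusp4, the most abundant member per length of transcript, stood at 65.5 and 59.5 CPM in vehicle, 184 and 102 CPM at 2 h, and 189 and 175 CPM at 12 h. All treated libraries exceeded the vehicle libraries, and both 2 h libraries lay far apart, at an SD of 40.3% of their mean. Its log2FC was 1.20 ± 0.258 SE at 2 h (adjusted p = 0.0264) and 1.54 ± 0.260 at 12 h (adjusted p = 0.00369). The 12 h call held in every fit with 1 library left out. At 2 h the log2FC was 0.69 without TGFb2h replicate 1 and 1.56 without TGFb2h replicate 2, and the call was lost without vehicle replicate 1 or 2 (adjusted p = 0.109 and 0.128), without TGFb12h replicate 1 or 2 (adjusted p = 0.0818 and 0.0822) and in a fit of the vehicle and 2 h libraries alone (adjusted p = 0.0841, in a range from 0.000107 over 8 alternative fits).

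Dusp5, whose nuclear enzyme acts on ERK, stood at 1.71 and 1.59 CPM in vehicle (29 and 25 counts), 3.89 and 4.49 CPM at 2 h, and 11.8 and 13.9 CPM at 12 h (270 counts in each library). The 3 groups were fully separated, in the order vehicle, 2 h, 12 h. The change was 2.53-fold at 2 h (log2FC 1.34 ± 0.224 SE, adjusted p = 0.0105) and 7.73-fold at 12 h (2.95 ± 0.220, adjusted p = 0.000158), the largest fold at 12 h among the 9 members with counts in vehicle. The 2 h call was lost without vehicle replicate 1 (log2FC 1.39, adjusted p = 0.0670) or replicate 2 (1.29, adjusted p = 0.0740), with a log2FC between 1.24 and 1.42 over all fits with 1 library left out.

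Dusp2, which encodes a nuclear phosphatase best known from activated lymphocytes, had 0 counts in both vehicle libraries, 40 and 63 counts at 2 h, and 74 and 35 counts at 12 h. These correspond to 2.02 and 3.18 CPM at 2 h and to 3.22 and 1.80 CPM at 12 h. A count of 0 allows up to 3 counts, or 0.176 and 0.191 CPM in the vehicle libraries. Against 3 counts per vehicle library, the mean of Dusp2 was at least 14.1-fold higher at 2 h and 13.7-fold higher at 12 h. These are ratios of means, and the lower treated library of each group gives a smaller fold. The test of the fitted change from 0 counts gave adjusted p = 0.00611 and 0.00201, which do not belong to these folds. Without TGFb2h replicate 2 or TGFb12h replicate 1, and in fits of vehicle with 1 treated group alone, Dusp2 fell under the minimum level and was not tested. The 2 treated groups overlapped, with a log2FC of −0.04 between them (adjusted p = 0.945).

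Dusp1, the classic immediate-early phosphatase, stood at 4.82 and 5.98 CPM in vehicle, 5.86 and 8.47 CPM at 2 h, and 6.57 and 7.34 CPM at 12 h. The 2 h libraries overlapped the vehicle libraries, and the 12 h libraries lay just above them. The log2FC was 0.41 ± 0.248 SE at 2 h (adjusted p = 0.326) and 0.36 ± 0.248 at 12 h (adjusted p = 0.278), so neither passed the test. In simulated counts of this depth a change of 1 on the log2 scale was called for 55.1% of 98 genes at 2 h and 54.1% at 12 h. A change of 1.5 was called for 85.9% and 87.9% of 99 genes. A moderate change can thus be missed, but these rates average over genes of all levels and do not give the rate for Dusp1.

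By edgeR, both ERK-selective cytoplasmic genes passed no test against vehicle at 2 h and were higher at 12 h than at 2 h. Dusp7 stood at 10.4 and 12.5 CPM in vehicle, 8.85 and 13.2 CPM at 2 h, and 43.4 and 44.6 CPM at 12 h. The 2 h libraries spanned the vehicle range, and both 12 h libraries stood far above all others. Its log2FC was −0.06 ± 0.213 SE at 2 h (adjusted p = 0.878) and 1.94 ± 0.212 at 12 h (adjusted p = 0.000623), and at 12 h against 2 h it was 2.00 ± 0.211 (adjusted p = 0.00103). The last 2 calls held in every fit with 1 library left out.

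Dusp6, the best known feedback phosphatase of ERK, stood at 54.5 and 31.96 CPM in vehicle, 29.6 and 19.2 CPM at 2 h, and 71.0 and 59.6 CPM at 12 h. Both 2 h libraries were below both vehicle libraries, and both 12 h libraries above them, with an SD in vehicle of 36.9% of the mean. Neither difference from vehicle passed the test, at a log2FC of −0.83 ± 0.299 SE at 2 h (adjusted p = 0.120) and 0.59 ± 0.293 at 12 h (adjusted p = 0.147). DESeq2 called it lower at 2 h (log2FC −0.84, adjusted p = 0.0395, in a range of 0.00235 to 0.216 over 8 alternative fits). Although same-numbered libraries were not treated as pairs, the lowest p came from the replicate block, which also called Dusp6 higher at 12 h (adjusted p = 0.00301). It was also called lower at 2 h without TGFb2h replicate 1 (log2FC −1.19, adjusted p = 0.0370) and higher at 12 h without vehicle replicate 1 (1.03, adjusted p = 0.0422). The rise from 2 h to 12 h passed, at a log2FC of 1.42 ± 0.299 SE (adjusted p = 0.0122), but not without TGFb12h replicate 1 (1.28, adjusted p = 0.0933) or replicate 2 (1.54, adjusted p = 0.0604).

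Dusp14 also rose late. It stood at 8.53 and 12.5 CPM in vehicle, 14.2 and 13.4 CPM at 2 h, and 21.2 and 25.4 CPM at 12 h. The 3 groups did not overlap, although the step from vehicle to 2 h did not pass the test (log2FC 0.39 ± 0.216 SE, adjusted p = 0.283). At 12 h the log2FC was 1.14 ± 0.215 (adjusted p = 0.00579), and it missed the threshold without TGFb12h replicate 2 (1.00, adjusted p = 0.0534). From 2 h to 12 h the log2FC was 0.75 ± 0.211 (adjusted p = 0.0338). That call was lost without any 1 of the 4 treated libraries, with adjusted p from 0.0529 to 0.193.

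**Figure D2:**
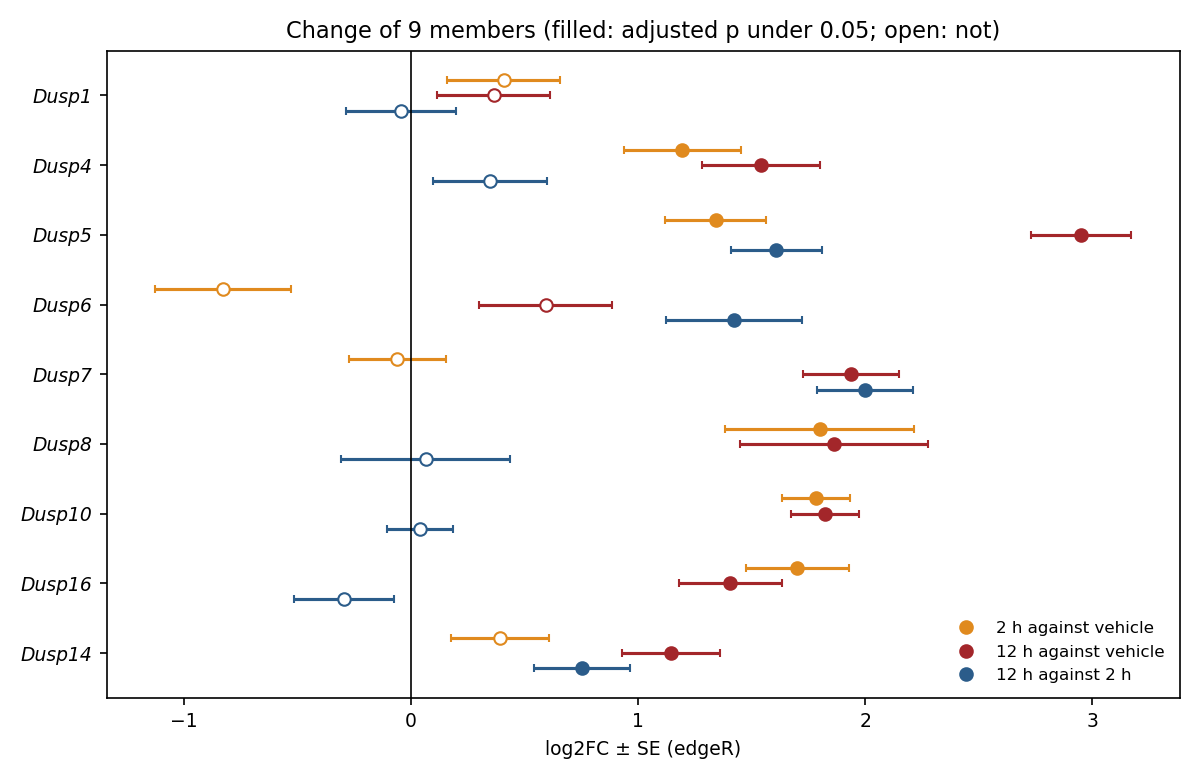
log2FC with its SE from edgeR (horizontal axis) for 9 phosphatase genes in the 3 comparisons, with filled points for an adjusted p under 0.05. Dusp2 is not drawn because its vehicle libraries hold 0 counts. Dusp4, Dusp5, Dusp8, Dusp10 and Dusp16 are past 1 at 2 h, Dusp7 and Dusp14 only at 12 h.

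The contrast of 12 h with 2 h compares the treated groups directly, so a longer time with TGFβ and a longer time without serum and insulin cannot be told apart in it. In it 4 members were higher, Dusp5 (log2FC 1.61 ± 0.199 SE, adjusted p = 0.00176), Dusp6, Dusp7 and Dusp14, against 15.2% of all genes. Dusp5, Dusp6 and Dusp7, which encode enzymes that act mainly on ERK, also had a log2FC above 1, against 4.50% of genes. None was lower by edgeR, at an unadjusted p under 0.05, by DESeq2 or by limma-voom, while 18.9% of genes were. The members' median log2FC was 0.21, beside 0.01 for all genes. By class, the JNK- and p38-selective genes were 3 of 3 higher at 2 h, beside 9.91% of all genes, and showed no call between the times. Of these 3, Dusp8 reached the minimum level for testing through treated cells, and its 2 h call was not stable, as given above. The cytoplasmic ERK-selective genes were 0 of 2 at 2 h and 2 of 2 higher at 12 h against 2 h, where the call of Dusp6 was also lost in some fits. The difference between the classes themselves was not tested.

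Division of the CPM by the length of the merged exons of each gene (TMM CPM per kb) allows levels to be compared between genes. On this scale Dusp4 led in every group, with 22.8 ± 1.56 (SD, n = 2) in vehicle, 52.2 ± 21.1 at 2 h and 66.5 ± 3.79 at 12 h. In vehicle it was followed by Dusp6 (15.5 ± 5.71) and Dusp10 (10.3 ± 0.122), and then by Dusp16 (6.01 ± 1.27) and Dusp14 (5.42 ± 1.46), whose ranges overlapped. Dusp7 (3.42 ± 0.449), Dusp1 (2.00 ± 0.304), Dusp5 (0.667 ± 0.0326) and Dusp8 (0.382 ± 0.217) came next without overlap between neighbours, and Dusp2 was last. At 2 h Dusp10 (35.5 ± 7.07) and Dusp16 (19.5 ± 3.52) had moved above Dusp6 (8.72 ± 2.62), and the range of Dusp10 overlapped that of Dusp4. At 12 h the order was Dusp4, Dusp10 (36.5 ± 0.872), Dusp6 (23.4 ± 2.89), Dusp16 (15.9 ± 3.64), Dusp7 (13.1 ± 0.259) and Dusp14 (12.0 ± 1.54), with the ranges of Dusp7 and Dusp14 overlapping.

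The sum of the 10 members on the per-length scale was 69.0 and 64.0 in the vehicle libraries, 156 and 111 at 2 h, and 184 and 171 at 12 h, with no overlap between the groups. The makeup of that sum shifted as well. The JNK- and p38-selective genes held 22.6% and 27.9% of it in vehicle, 40.8% and 44.4% at 2 h, and 30.9% and 29.6% at 12 h. The cytoplasmic ERK-selective genes went the other way, with 32.8% and 23.7% in vehicle, 8.47% and 9.74% at 2 h, and 20.8% and 20.2% at 12 h. Their own summed level was 22.6 and 15.2 in vehicle, 13.2 and 10.8 at 2 h, and 38.3 and 34.6 at 12 h, so at 12 h it was above vehicle while its share was below. The lower sum at 2 h came from Dusp6, with a mean of 15.5 in vehicle and 8.72 at 2 h, a change that did not pass the test. Dusp7 had means of 3.42 and 3.28. The nuclear inducible genes held 38.3% to 38.4% in vehicle, 39.6% to 46.1% at 2 h and 42.4% to 42.6% at 12 h, nearly all of it Dusp4. These shares describe transcripts over genes chosen with earlier results of these data known, and carry no test.

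**Figure D3:**
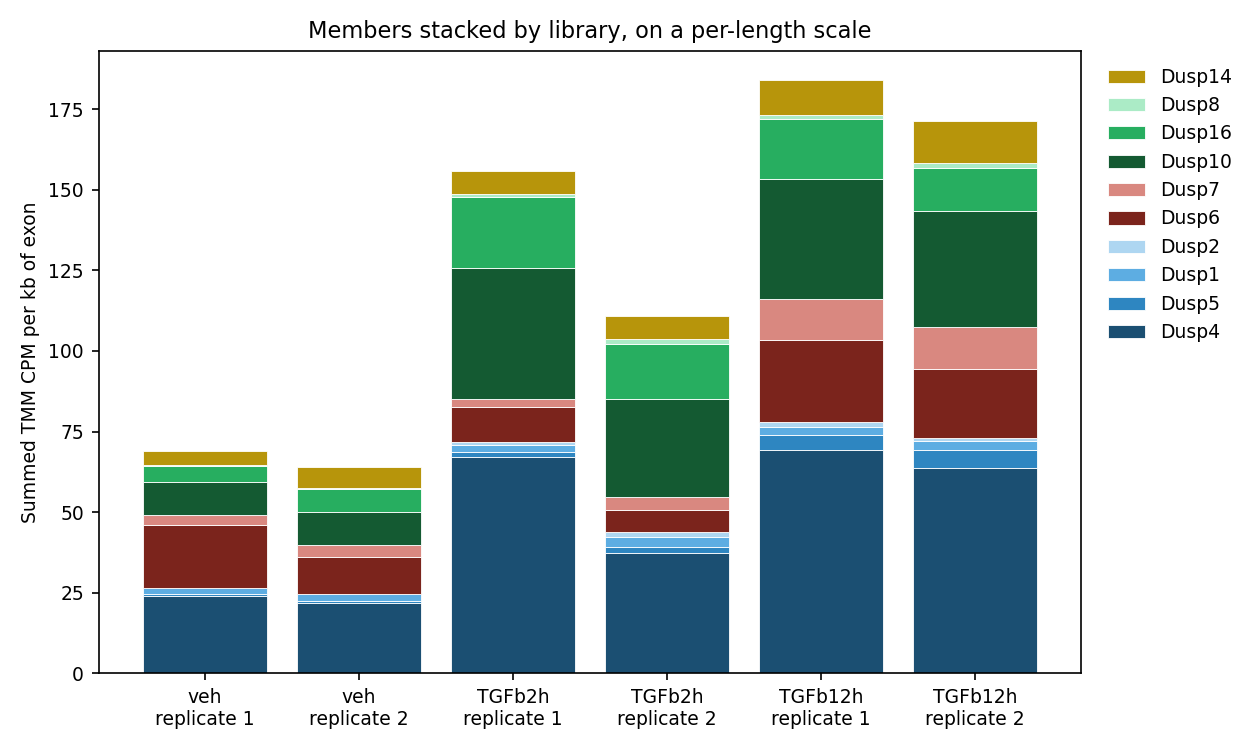
Stacked TMM CPM per kb of exon (vertical axis, from 0) of the 10 phosphatase genes in each of the 6 libraries. Blue shades are nuclear inducible genes, red shades cytoplasmic ERK-selective genes, green shades JNK- and p38-selective genes and yellow Dusp14. The stacks reach 64.0 and 69.0 in vehicle and 111 to 184 in treated cells, and the green part widens most at 2 h.

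The 10 genes lie on 10 different chromosomes, so none is a neighbour of another. In NCBIM37 (mm9), Dusp1 lies at chr17:26642535-26645464, Dusp2 at chr2:127161895-127164112, Dusp4 at chr8:35870351-35882948, Dusp5 at chr19:53603599-53616921 and Dusp6 at chr10:98725865-98730122. Dusp7 lies at chr9:106270963-106278055, Dusp8 at chr7:149265395-149281748, Dusp10 at chr1:185837181-185899515, Dusp14 at chr11:83861543-83882763 and Dusp16 at chr6:134665488-134742643. Dusp1, Dusp8, Dusp14 and Dusp16 are on the minus strand.

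For 9 of the 10 members, all but Dusp4, RefSeq promoter sequences were searched on both strands over the 250 bases before the RefSeq start. That start need not be the outer end of the GENCODE gene given above, and it lies inside the GENCODE gene by 36 bases for Dusp5, 47 for Dusp1, 559 for Dusp8, 904 for Dusp14 and 21079 for Dusp10. The motifs were those of factors that MAP kinases or TGFβ act on: the AP-1 site TGANTCA, the cAMP response element TGACGTCA, the CArG box of serum response factor, the SMAD palindrome GTCTAGAC, the short SMAD element CAGAC and the ETS core CCGGAA. The AP-1 site and the SMAD palindrome were in 0 of 9, beside 6.75% and 0.167% of 32851 promoters. The short SMAD element was in 3 of 9 (Dusp1, Dusp2 and Dusp14), beside 42.2%, and the ETS core in 1 (Dusp14), beside 12.0%. The cAMP response element was in 2 of 9, Dusp1 and Dusp8, beside 1.55% of promoters, and the CArG box in 1, Dusp5, beside 1.47%. No match of a motif overlapped one of another. The windows of these 3 promoters are shown because their motifs are the rarest ones found, and because they belong to genes with different courses. Dusp5 climbed at both times, Dusp8 rose at 2 h and Dusp1 passed no test. The stretches, from the RefSeq table of GRCm38.p6, matched NCBIM37 exactly once, lie outside annotated exons and are written 5′ to 3′ on the strand of the gene, with the CArG box or cAMP response element in capitals and the short SMAD element left in lower case.
Dusp5: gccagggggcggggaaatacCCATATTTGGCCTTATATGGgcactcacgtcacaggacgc
Dusp8: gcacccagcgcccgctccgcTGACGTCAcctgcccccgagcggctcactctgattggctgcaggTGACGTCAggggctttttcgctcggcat
Dusp1: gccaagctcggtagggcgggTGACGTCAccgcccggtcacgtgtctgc
The Dusp5 window, chr19:53603533-53603592 on the plus strand, holds 2 CArG boxes back to back, at −82 to −73 and −72 to −63 from the RefSeq start. The Dusp8 window, chr7:149281225-149281316 on the minus strand, holds 2 cAMP response elements at −107 to −100 and −63 to −56 from the RefSeq start, and lies within the longer GENCODE model of the gene, between its exons. The Dusp1 window, chr17:26645533-26645580 on the minus strand, holds 1 at −143 to −136, and a short SMAD element on the opposite strand at −121 to −117. A match is a description of letters, and no binding was measured here.

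The other genes of the pathway were read from lists chosen, like the members, with earlier results known. Their counts stand beside 9.91% of all genes called higher and 5.25% lower at 2 h, and 21.8% and 21.5% at 12 h, and nothing particular to a list is read from them. Of 14 other Dusp genes 7 were tested. Higher levels were called for 2 of them at 2 h, with 0 lower, and for 2 at 12 h, with 1 lower, at a median log2FC of −0.04 and 0.27. Dusp28, an atypical member, stood at 9.29 and 8.98 CPM in vehicle, 19.97 and 19.5 CPM at 2 h, and 23.2 and 22.4 CPM at 12 h (log2FC 1.11 and 1.32, adjusted p = 0.00313 and 0.000451). Dusp13 had at most 3.43 CPM in any library (1.66 and 1.29, adjusted p = 0.0262 and 0.0272), and like Dusp2 and Dusp5 it reached the minimum level in treated libraries alone. Dusp19, an atypical member, fell by 0.86 on the log2 scale at 12 h (adjusted p = 0.00404). Of 8 other phosphatases that act on MAP kinases, 5 were tested, with 0 called at 2 h and 1 higher at 12 h, the protein phosphatase 2A subunit gene Ppp2cb (0.47, adjusted p = 0.0230). Their median log2FC was 0.06 and 0.10.

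Of 10 MAP kinase genes 8 were tested, of which 1 at 2 h and 2 at 12 h were higher and 0 at either time lower, with medians of 0.02 and 0.23. Mapk14, which encodes p38α, stood at 102 and 106 CPM in vehicle, 206 and 186 CPM at 2 h, and 96.1 and 98.8 CPM at 12 h. It rose 1.89-fold at 2 h (log2FC 0.92 ± 0.1004 SE, adjusted p = 0.00228) and was lower at 12 h than at 2 h (−1.01, adjusted p = 0.000885). Dusp10 and Dusp16, which encode p38 phosphatases, were still above both vehicle libraries at 12 h. Mapk11, encoding p38β, rose at 12 h (0.98, adjusted p = 0.00349), as did the JNK gene Mapk9 (0.35, adjusted p = 0.0481), whose call was lost with DESeq2 (adjusted p = 0.0567) and without the filter on low counts (adjusted p = 0.0644). Of 7 MAP kinase kinase genes, all tested, 2 were higher and 1 lower at each time, with medians of 0.01 and 0.13. Map2k3, an activator of p38, had a log2FC of 1.12 at 2 h (adjusted p = 0.0132), and Map2k6, the other main activator of p38, fell by 0.88 at 2 h (adjusted p = 0.0328) and by 1.84 at 12 h (adjusted p = 0.000741). The ERK activators rose at different times, Map2k2 at 2 h (0.53, adjusted p = 0.0275) and Map2k1 at 12 h (0.87, adjusted p = 0.00266), and the JNK activator Map2k4 rose at 12 h (0.34, adjusted p = 0.0259).

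Further upstream, 14 of 15 MAP kinase kinase kinase genes were tested, with 3 higher against 1 lower at 2 h, 2 against 2 at 12 h, and medians of 0.06 and −0.06. At 2 h Map3k4 rose (log2FC 0.61, adjusted p = 0.0404), and Map3k1 fell by 0.72 (adjusted p = 0.0103). At 12 h Map3k3 and Map3k4 rose (0.65 and 0.55, adjusted p = 0.00703 and 0.0241), while Map3k1 and Map3k5, kinases above JNK and p38, fell by 1.29 and 1.12 (adjusted p = 0.000331 and 0.000319). Of 9 genes of Ras and its adaptors, all tested, 0 were called at 2 h, and 3 were higher and 1 lower at 12 h, with medians of 0.20 and 0.09. Those at 12 h included the Ras GTPase-activating protein gene Rasa1 (0.86, adjusted p = 0.0180) and the adaptor gene Shc1, which fell by 0.33 (adjusted p = 0.0377, and 0.0519 without the filter on low counts). Of 10 kinases that MAP kinases activate, all tested, 1 was higher against 1 lower at 2 h, and 1 against 3 at 12 h, with medians of 0.17 and 0.03. Both genes of the nuclear kinases that ERK and p38 share moved oppositely, Rps6ka4 upward (0.60 and 0.73, adjusted p = 0.0181 and 0.00294) and Rps6ka5 downward (−1.07 and −1.01, adjusted p = 0.0464 and 0.0248), and the ERK-activated kinase gene Rps6ka1 fell by 1.12 at 12 h (adjusted p = 0.000232). The counts of 0 in these lists were also 0 at an unadjusted p under 0.05, by limma-voom and by DESeq2, except for other phosphatases (1 higher at 2 h unadjusted and by DESeq2, 1 lower at 12 h unadjusted) and Ras and its adaptors (2 higher at 2 h unadjusted, 1 by DESeq2).

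The last list holds transcripts commonly read as output of ERK, other than Dusp genes. Of 8 genes 7 were tested, with 1 higher against 2 lower at 2 h, 5 against 1 at 12 h, and medians of −0.53 and 0.76 beside −0.01 and 0.02 for all genes. At 12 h against 2 h, 4 were higher and 1 lower, beside 15.2% and 18.9% of all genes, with a median of 1.09. The 2 not called were Ccnd1 and Phlda1, at a log2FC of 0.01 and 0.09 (adjusted p = 0.962 and 0.738). Epha2, a receptor tyrosine kinase, stood at 208 and 180 CPM in vehicle, 118 and 135 CPM at 2 h, and 303 and 357 CPM at 12 h (log2FC −0.62 and 0.76, adjusted p = 0.0276 and 0.00470). Its levels at 2 h lay below and those at 12 h above vehicle, the same order of groups as Dusp6, whose differences from vehicle did not pass. Epha4 of the same list had the opposite order, at 260 and 233 CPM in vehicle, 421 and 294 CPM at 2 h, and 192 and 191 CPM at 12 h. Its log2FC of 12 h against 2 h was −0.90 (adjusted p = 0.00897). The courses of these genes were not tested against each other. The ETS factor gene Etv5 stood at 3.06 and 1.91 CPM in vehicle, 1.87 and 1.26 CPM at 2 h, and 6.40 and 5.75 CPM at 12 h, higher at 12 h (1.28, adjusted p = 0.0165). Of the 5 genes higher at 12 h, 1 reached the minimum level in the 12 h libraries alone and so had to differ to be tested. It is also 1 of the 4 genes higher at 12 h against 2 h. DESeq2 did not call it against vehicle at 12 h (adjusted p = 0.0718), which leaves 4 of the 5 higher. Phlda1 was higher at both times (1.22 and 1.31, adjusted p = 0.00910 and 0.00228). The cyclin gene Ccnd1 fell by 0.53 at 2 h and 0.52 at 12 h (adjusted p = 0.0499 and 0.0232).

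**Figure D4:**
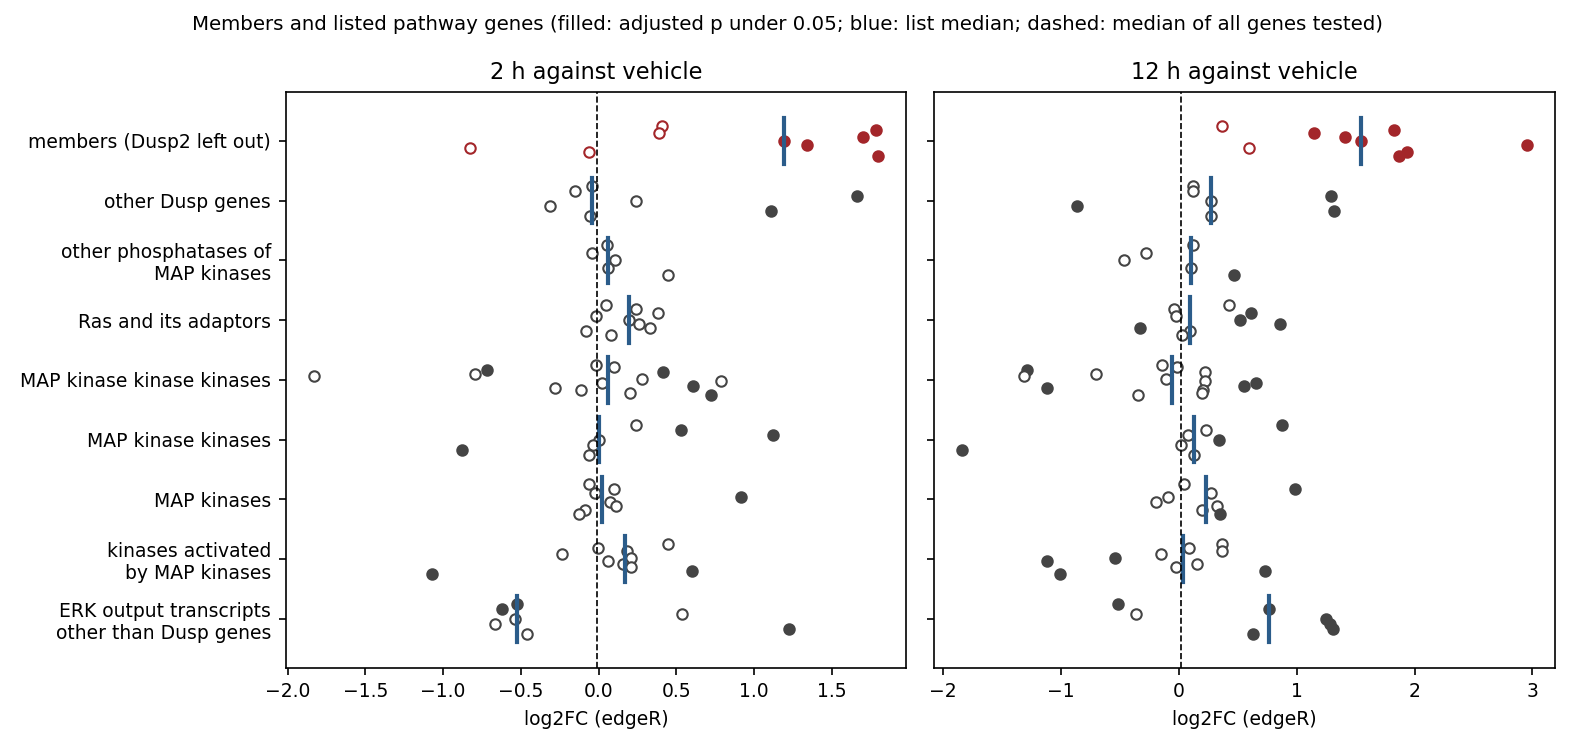
log2FC from edgeR (horizontal axes) at 2 h (left) and 12 h (right) for 9 phosphatase genes, in red, and for the tested genes of 8 pathway lists, in grey, with filled points for an adjusted p under 0.05. Blue bars are list medians and the dashed line the median of all genes tested, −0.01 at 2 h and 0.02 at 12 h. The ERK output list has a median of −0.53 at 2 h and 0.76 at 12 h.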

How the data were processed

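Expression was measured by stranded total RNA-seq with single reads of 50 bases in 6 libraries of NMuMG cells. Per the study's methods, the authors aligned reads to mm9 with subjunc, kept unique alignments, removed duplicates (SAMtools 0.1.19) and assigned reads to exons of UCSC genes on the annotated strand with featureCounts. The deposited values are raw counts per gene, without normalization. Malat1 holds 75.1 to 182 counts per exonic base, more than 1 read per start position, and 2.64% to 5.34% of each library, so reads with the same start were counted and the deposited counts may predate duplicate removal.

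Counts were tested with edgeR 4.0.16 (R 4.3.3): TMM factors, a minimum of 2 CPM in 2 or more libraries, 1 quasi-likelihood fit of 3 groups, two-sided p-values adjusted by Benjamini-Hochberg over 11080 genes within each contrast, and calls at an adjusted p under 0.05. The SE is the absolute log2FC over the square root of F. Among the members Dusp2 alone had a group at 0, and its floor was 3 counts per library. The fit was tested on simulated counts of 10926 genes. Alternatives were limma 3.58.1 (voom), DESeq2 1.42.0, other scalings and filters, smaller fits, a replicate block and leaving out each library. Exon lengths came from GENCODE on NCBIM37. Lists, the members included, were chosen with earlier results of these data known. All 10 members are named, and from each list, comparison with vehicle and direction at most the 2 called genes with the largest absolute log2FC. A few genes outside this rule are also named, among them Epha4, Pdgfrb and Dcn. Some genes that this rule takes are not reported here. Intervals were not computed, and the floor covers counting error only.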

Additional observations from a re-analysis of the deposited data

Results flagged for a closer look

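For 4 phosphatase genes the change from vehicle was larger or of the other sign at 12 h than at 2 h by a direct test of 12 h against 2 h (edgeR, Benjamini-Hochberg over all genes). The same vehicle libraries stand on both sides, and a longer time with TGFβ and a longer time without serum and insulin cannot be told apart. The log2FC at 12 h exceeded that at 2 h by 1.61 for Dusp5 (adjusted p = 0.00176), 1.42 for Dusp6 (adjusted p = 0.0122), 2.00 for Dusp7 (adjusted p = 0.00103) and 0.75 for Dusp14 (adjusted p = 0.0338). The calls of Dusp6 and Dusp14 were lost in fits with 1 library left out, as given above, while their log2FC stayed between 1.14 and 1.77 and between 0.61 and 0.87. No sample was tested as an outlier, since each group has 2 libraries.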

How the results depend on the processing

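The count of members higher at 2 h was 6, but 3 when the 2 groups compared were fitted alone, where Dusp2 was below the filter and Dusp4 and Dusp8 missed the threshold, and 3 to 6 with 1 library left out, the lowest without vehicle replicate 1 or TGFb12h replicate 1. The count of members lower at 2 h went from 0 to 1, Dusp6, with DESeq2, and to between 0 and 1 with 1 library left out. With 1 library left out, the members higher at 12 h numbered 6 to 9, and those higher at 12 h than at 2 h 2 to 4, the lowest without either 12 h library. Directions turned with 1 library left out for values that had not passed the test with all libraries. These were the log2FC of 12 h against 2 h for Dusp1 (−0.28 to 0.24), Dusp2 (−0.33 to 0.31), Dusp4 (−0.016 to 0.83, called without TGFb2h replicate 1 at an adjusted p of 0.00342), Dusp8 (−0.20 to 0.39) and Dusp10 (−0.15 to 0.26), and of 2 h for Dusp7 (−0.37 to 0.18). The causes were not tested. With total counts in place of TMM factors the median of all genes moved to −0.12 at 2 h and −0.11 at 12 h, and that of the members to 1.16 and 1.55. No other scaling or filter moved a call, apart from Dusp2 falling under the filter of at least 10 counts in every library.

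Same-numbered libraries deviated together, with correlations of their deviations of 0.695 (vehicle with 2 h), 0.276 (vehicle with 12 h) and 0.391 (2 h with 12 h), but with 2 pairs and no label for what a number shares they were not treated as pairs. A replicate block raised the calls over all genes from 1680 to 3222 at 2 h, 4799 to 6127 at 12 h and 3775 to 5373 between the times. Among the members it changed Dusp6 alone, which was then lower at 2 h (log2FC −0.82, adjusted p = 0.00235, the 1 member called lower) and higher at 12 h (0.63, adjusted p = 0.00301).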

Other observations

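Sprouty 2 (Spry2), another feedback inhibitor of the ERK pathway, stood at 8.65 and 7.89 CPM in vehicle, 6.57 and 5.44 CPM at 2 h, and 13.4 and 12.2 CPM at 12 h. Its log2FC was −0.46 at 2 h (adjusted p = 0.152), 0.63 at 12 h (adjusted p = 0.0293) and 1.09 at 12 h against 2 h (adjusted p = 0.00519). It is 1 of the 7 ERK output genes counted above, and its log2FC of 12 h against 2 h is the median of that list, so it adds no separate evidence. It was chosen after its values were seen.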
